A study of Mus musculus with 2 samples.

Results

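The genes described here encode miR-199 and miR-214, microRNAs best known from mesenchymal and stromal cells. They are Mir214, Mir199a-2, Mir199a-1 and Mir199b, 4 of the 1973 annotated miRNA genes counted in each library, and were found by matching the Ensembl identifiers to these symbols in the GENCODE mouse annotation. The libraries came from kidneys of B6NCrl mouse embryos at 14.5 days of gestation and covered RNA under 30 nucleotides. All belonged to 1 group, embryonic kidney, of which 2 biological replicates were taken on separate days, each from 2 kidneys. The labels speak of a single pup per sample in one field and of both sexes pooled in another, and they give both samples the same donor identifier. The number of embryos per sample is thus not settled, and an SD over the 2 libraries may hold technical spread as well as that between embryos. No genotype, treatment or time was compared, and the comparisons below are between genes and between the replicates.

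A microRNA is cut from a hairpin in a longer transcript, and either arm of the hairpin (5p or 3p) can give a mature RNA that guides Argonaute to messages matching its seed, bases 2 to 8. Mir199a-2 and Mir214 lie in one long non-coding RNA, Dnm3os, which runs opposite to the dynamin gene Dnm3 and is active in the mesenchyme of the embryo, where the transcription factor Twist1 drives it. Mouse embryos that lack Dnm3os grow poorly and have skeletal defects. In adult mouse kidney, miR-214 and miR-199a are known for their rise in fibrosis, a process carried by stromal cells. The miR-199 genes are copies of one another, each placed opposite to a dynamin gene.

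The mature sequences are shown because they decide which reads could be assigned to a single gene. They were taken from RefSeq (GRCm38.p6, the assembly also called mm10), in which all 4 genes had an entry, and are written 5′ to 3′ with the seed in capitals.
miR-214-3p, from Mir214: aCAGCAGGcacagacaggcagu
miR-214-5p, from Mir214: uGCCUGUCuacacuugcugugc
miR-199a-5p, from Mir199a-2 and Mir199a-1: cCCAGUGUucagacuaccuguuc
miR-199a-3p, from Mir199a-2 and Mir199a-1, and miR-199b-3p, from Mir199b: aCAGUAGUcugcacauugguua

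Both arms of Mir214 had a sequence listed for no other mouse gene. miR-199a-5p was the same 23 bases in Mir199a-2 and Mir199a-1, and the miR-199 3p sequence was the same 22 bases in all 3 miR-199 genes. The seeds fell into 4 kinds, of which that of miR-214-3p, CAGCAGG, was the one also found outside the 4 genes. It was shared with miR-761 (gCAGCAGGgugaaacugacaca), whose gene Mir761 had 0 counts in both libraries, which allows a level of at most 0.577 CPM (replicate 1) or 0.814 CPM (replicate 2), that of 3 counts. Here CPM stands for a gene's counts per 1000000 own-strand counts of all miRNA genes in the library.

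The hairpins are shown with the listed mature arms in capitals, since bases outside the arms are what tells the copies apart.
Mir214: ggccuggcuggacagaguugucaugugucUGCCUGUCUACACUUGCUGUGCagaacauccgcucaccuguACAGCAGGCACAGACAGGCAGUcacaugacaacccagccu
Mir199a-2: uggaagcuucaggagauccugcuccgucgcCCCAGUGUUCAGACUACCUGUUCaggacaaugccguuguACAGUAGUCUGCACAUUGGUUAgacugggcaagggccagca
Mir199a-1: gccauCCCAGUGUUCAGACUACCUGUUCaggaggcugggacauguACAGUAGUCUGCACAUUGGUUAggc
Mir199b: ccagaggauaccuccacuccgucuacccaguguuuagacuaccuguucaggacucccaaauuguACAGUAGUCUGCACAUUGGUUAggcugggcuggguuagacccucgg

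On its 5p arm the Mir199b hairpin matched miR-199a-5p at 22 of 23 bases. The difference was C10U, with positions counted from 1 at the 5′ end of miR-199a-5p, and the Mir199b stretch reads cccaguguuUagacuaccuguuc with the differing base in capitals. The seed bases were therefore the same. Between Mir199a-2 and Mir199a-1 the shared run around miR-199a-5p was 27 bases long, with 0 shared bases before the mature sequence and 4 after it. Around the 3p sequence the shared run was 27 bases between Mir199a-2 and Mir199b, 26 between Mir199a-2 and Mir199a-1, and 28 between Mir199a-1 and Mir199b, the last ending where the Mir199a-1 hairpin ends. Of all stretches of 22 bases in each hairpin, those found in no other mouse hairpin of the RefSeq table numbered 89 of 89 in Mir214, 77 of 89 in Mir199a-2, 36 of 49 in Mir199a-1 and 81 of 89 in Mir199b.

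In mm10, Mir199a-2 (ENSMUSG00000070126.1) occupies bases 162217814 to 162217923 of chromosome 1 on the plus strand, and Mir214 (ENSMUSG00000065516.1) bases 162223368 to 162223477 of the same strand. A gap of 5444 bases separates them. Each hairpin lay wholly within an exon of 2 Dnm3os transcripts, and partly within an exon of 3 more for Mir199a-2 and of 1 more for Mir214. Mir199a-1 (ENSMUSG00000065547.1) is on the minus strand of chromosome 9 at 21496495 to 21496564, in an intron of 10 of 10 overlapping transcripts of Dnm2, which runs the other way. Mir199b (ENSMUSG00000092807.1) is on the plus strand of chromosome 2 at 32318460 to 32318569, in an intron of 10 of 10 overlapping transcripts of Dnm1, also on the opposite strand. Neither had an annotated host on its own strand. All 4 genes had 0 counts on the opposite strand in both libraries, and 0 other counted miRNA genes overlapped them.

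The libraries had 5202588 and 3683978 own-strand counts in replicates 1 and 2. Reads that mapped to several places made up 28.3% of all reads in replicate 1 and 27.5% in replicate 2. They are tallied apart from the genes, and the tables do not say which of them are miR-199. Detected genes are those with at least 10 counts per library, and 345 genes, with a median level of 114 CPM, reached that minimum. Intervals and limits cover counting error only, not the spread between libraries or embryos. They also treat each read as independent, although PCR copies of a molecule were not told apart by molecular identifiers. Mature miRNAs are nearly equal in length (22 or 23 bases here), so levels were compared between genes in CPM without a correction for length.

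Mir214 had by far the most counts assigned to it of the 4 genes, and its neighbour in Dnm3os, Mir199a-2, had far fewer. Reads of the shared miR-199 sequences that fit more than 1 place are not in these rows. The levels below are therefore those of assigned counts, not of the mature RNAs. All 4 genes were detected. Mir214 had 33703 counts in replicate 1 and 20389 in replicate 2. These were 6478 CPM (95% exact Clopper-Pearson interval 6409 to 6547) and 5535 CPM (5459 to 5611), a mean of 6006 ± 667 CPM (SD, n = 2). Mir199a-2 had 401 and 272 counts, or 77.1 CPM (69.7 to 85.0) in replicate 1 and 73.8 CPM (65.3 to 83.1) in replicate 2, a mean of 75.5 ± 2.29 CPM (SD, n = 2). The levels of the 2 genes lay much further apart than the replicates of either. For Mir214, the counting intervals of the replicates did not overlap.

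Of the other genes, Mir199b stood above Mir199a-2, and Mir199a-1 was close to the limit of detection. Mir199a-1 had 19 and 11 counts, or 3.65 CPM (2.20 to 5.70) in replicate 1 and 2.99 CPM (1.49 to 5.34) in replicate 2, a mean of 3.32 ± 0.471 CPM (SD, n = 2). Mir199b had 1167 and 756 counts, or 224 CPM (212 to 238) in replicate 1 and 205 CPM (191 to 220) in replicate 2, a mean of 215 ± 13.5 CPM (SD, n = 2). In both replicates the order was Mir214, Mir199b, Mir199a-2, Mir199a-1, and the counting intervals of neighbours in that order did not overlap in either library. The 4 genes together held 0.678% of own-strand counts in replicate 1 and 0.582% in replicate 2, and Mir214 alone made up 95.5% and 95.2% of their sum.

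**Figure D1:**
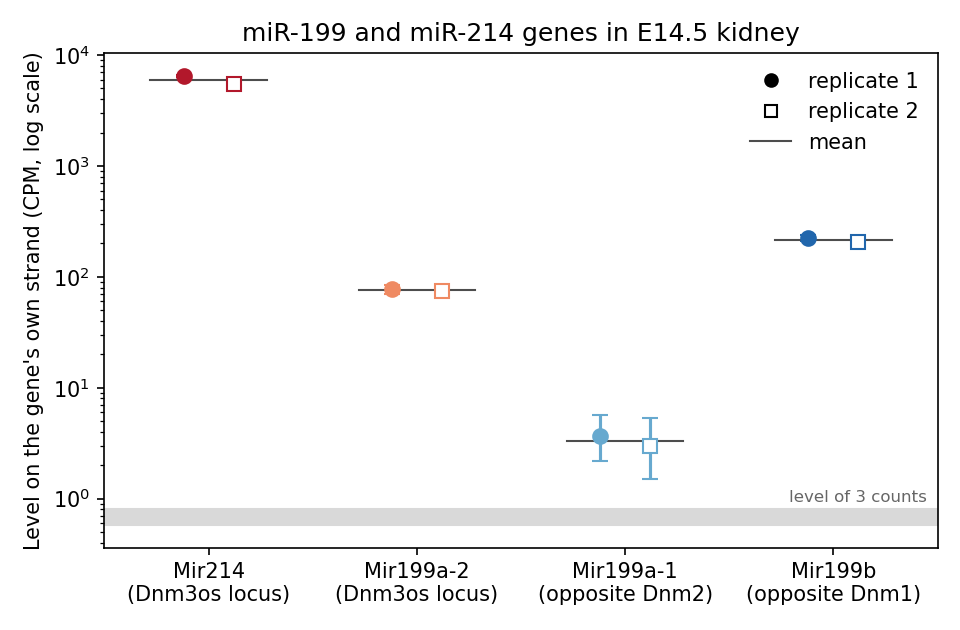
Levels of the 4 genes in CPM on a log scale, with replicate 1 as filled circles, replicate 2 as open squares, bars for the 95% exact counting interval and a line for the mean. Mir214 averaged 6006 CPM and Mir199a-2 75.5 CPM, against 3.32 CPM for Mir199a-1 and 215 CPM for Mir199b. The grey band marks 3 counts (0.577 to 0.814 CPM). Reads that fit more than 1 place are not in these levels.

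The pair in Dnm3os was set against Mir199a-1 and Mir199b together. Summed, the pair had 6555 CPM in replicate 1 and 5608 CPM in replicate 2, against 228 and 208 CPM for the other genes. The pair exceeded them by 4.79 ± 0.07 on the scale of log2(CPM + 1) (SD, n = 2), a gap many times the spread between replicates. Mir214 accounted for it, since Mir199a-2 alone differed from Mir199b by -1.50 ± 0.05 on the same scale. No listed mature sequence of Mir214 is shared with another gene, whereas every listed one of the miR-199 genes is. The part of this sharing in the difference was not tested, and an SD between replicates does not cover it. With 2 libraries, a permutation of signs cannot give a two-sided p below 0.5, so these differences are set beside their SD and not tested.

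Within the pair, Mir214 exceeded Mir199a-2 by 6.29 ± 0.12 on the log2(CPM + 1) scale (SD, n = 2). As a ratio of counts this was 84.0 in replicate 1 (95% exact interval 76.2 to 93.0) and 75.0 in replicate 2 (66.5 to 84.8), and the intervals of the replicates overlapped. The counts are of reads assigned to one gene, so this ratio is not that of the 2 hairpins in the Dnm3os transcript. It is not that of their mature RNAs either. Every listed mature sequence of Mir199a-2 also occurs in another gene, whereas those of Mir214 do not. Reads of the shared miR-199 sequences that fit more than 1 place would be in the tally of such reads, not in a gene's row, and their part in the ratio was not tested. Outside the pair, Mir199b exceeded Mir199a-1 by 5.65 ± 0.07 on the same scale, and the ratio of counts was 61.4 in replicate 1 (39.2 to 102) and 68.7 in replicate 2 (38.2 to 138).

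Among the miR-199 genes alone, the counts that could be assigned came mostly from Mir199b. The 5p stretch of the Mir199b hairpin differs from miR-199a-5p by C10U, and the part of this difference in the shares was not tested. The 3 miR-199 genes together had 1587 counts in replicate 1 and 1039 in replicate 2. Mir199a-2 made up 25.3% of these in replicate 1 (95% exact interval 23.1 to 27.5) and 26.2% in replicate 2 (23.5 to 29.0). Mir199a-1 made up 1.20% (0.722 to 1.86) and 1.06% (0.530 to 1.89). Mir199b made up 73.5% (71.3 to 75.7) and 72.8% (69.9 to 75.4). Each gene's shares had overlapping intervals in the replicates. Mir199a-2 and Mir199a-1 carry the same mature sequences on both arms, so a read of exactly such a sequence fits both genes. In the counts that were assigned to 1 gene, Mir199a-2 exceeded Mir199a-1 by 4.15 ± 0.11 on the log2(CPM + 1) scale. This was 21.1-fold in counts in replicate 1 (13.3 to 35.4) and 24.7-fold in replicate 2 (13.6 to 50.1). Whether the mature RNAs made by the 2 genes differ likewise was not tested. Which arm the reads came from is not recorded in counts per gene.

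The sharing of mature sequences was then set beside the levels of all genes. RefSeq listed mature sequences for 916 of the 1973 counted genes, among them 315 of the 345 detected ones. In 34 genes every listed sequence also belonged to another mouse gene, and 7 of these (20.6%) were detected, with a median of 65.0 CPM. The 3 miR-199 genes were among those 7, in which Mir199b was the highest, Mir199a-2 came next and Mir199a-1 was the lowest. Mir199b falls in this class by its 3p sequence, the listed one. Its 5p stretch, which differs from miR-199a-5p by C10U, is not listed and did not enter the class. In 829 genes no listed sequence was shared, and 270 of these (32.6%) were detected, with a median of 131 CPM. Mir214 belonged to them, and 28 of the 270 were higher. The 53 genes with some shared sequences had a median of 69.4 CPM in the 38 detected (71.7%). The classes rest on the listed sequences only, so for any gene a mature sequence missing from the list could change its class. These classes overlapped widely in level and are given as a description.

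**Figure D2:**
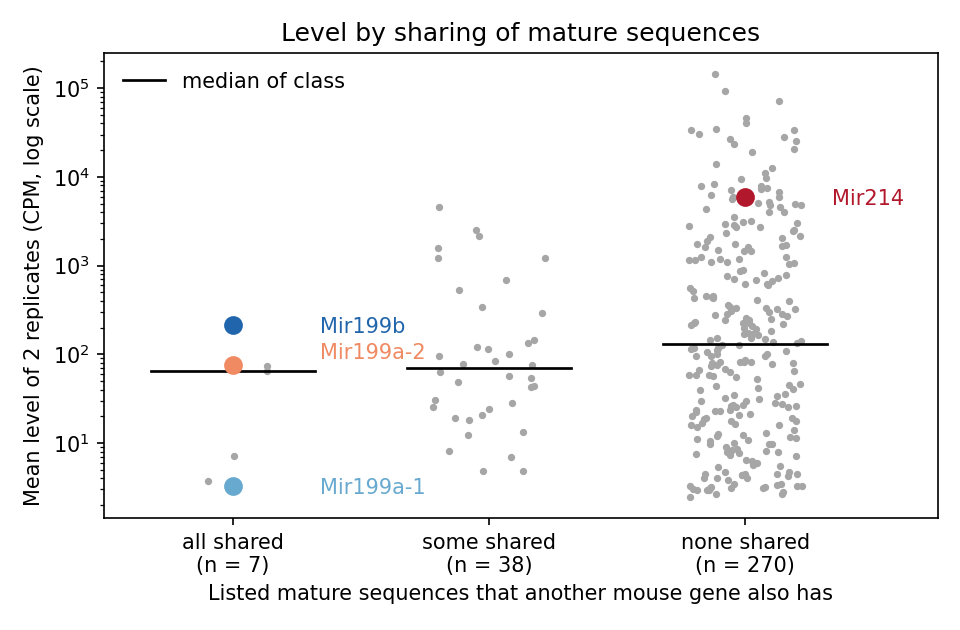
Mean level of each detected gene in CPM on a log scale, by whether all, some or none of its listed mature sequences belong to another mouse gene, with a line at the class median. Mir199b (215 CPM), Mir199a-2 (75.5 CPM) and Mir199a-1 (3.32 CPM) span the class in which all are shared, and Mir214 (6006 CPM) lies well above the median of 131 CPM of the class in which none is.

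One other locus offered the same setting as Mir214 and Mir199a-2, a detected gene with unshared sequences within 10000 bases and on the same strand as a detected gene with shared ones only. It was Mirlet7b, at 1756 CPM, and Mirlet7c-2, at 72.9 CPM, which differed by 4.58 ± 0.11 on the log2(CPM + 1) scale (SD, n = 2), against 6.29 ± 0.12 for Mir214 and Mir199a-2. The gene with unshared sequences was the higher one at both loci. Mirlet7b and Mirlet7c-2 were named after their values were seen, and the part of sharing in these differences was not tested.

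Among the 345 detected genes Mir214 had rank 30, Mir199b rank 142, Mir199a-2 rank 195 and Mir199a-1 rank 327. The genes next above Mir214 were Mir652 at 6767 ± 104 CPM and Mir100 at 6329 ± 171 CPM, and those next below were Mir615, of the Hoxc cluster, at 5916 ± 268 CPM and Mir98, a let-7 relative, at 5868 ± 279 CPM (SD, n = 2 each). The range of the replicates of Mir214 overlapped those of Mir100, Mir615 and Mir98, but not that of Mir652, so its place among them is not settled. Around Mir199b stood Mir27a (224 CPM), Mir341 (221 CPM), Mir363 (214 CPM) and Mir540 (211 CPM). Around Mir199a-2 stood Mir7-1 (77.8 CPM), Mir30c-2 (75.6 CPM), Mir485 (75.2 CPM) and Mir3071 (73.8 CPM). Around Mir199a-1 stood Mir879 (3.42 CPM), Mir504 (3.40 CPM), Mir3076 (3.32 CPM) and Mir6546 (3.25 CPM). All of these had ranges that overlapped that of the member they stood beside. In all, 7 detected genes had ranges that overlapped that of Mir214, 12 that of Mir199b, 16 that of Mir199a-2 and 29 that of Mir199a-1.

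**Figure D3:**
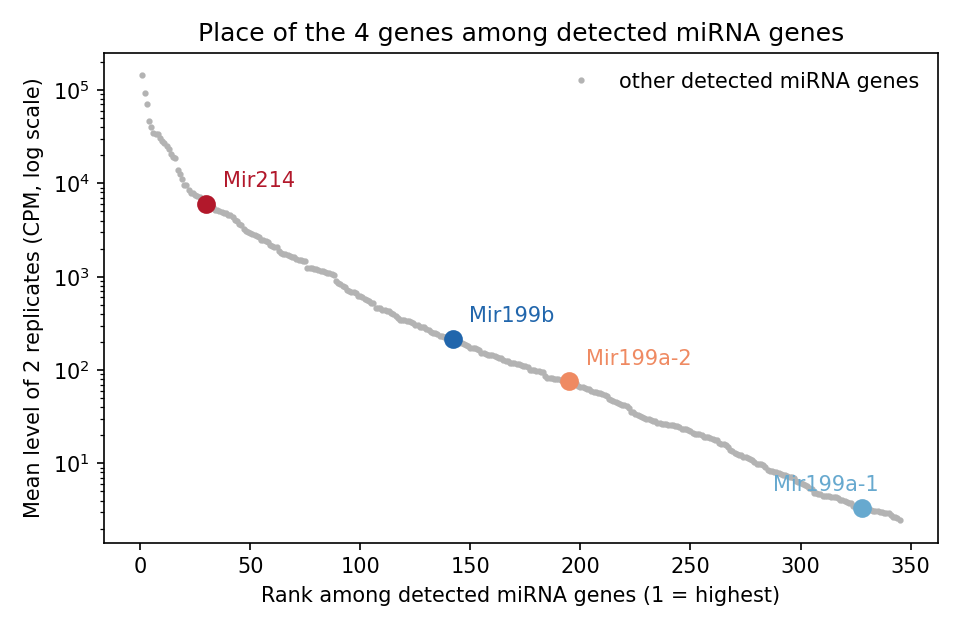
Mean level in CPM on a log scale of the 345 detected genes in order of rank, with the 4 genes marked. Mir214 is at rank 30, far left of Mir199b (142), Mir199a-2 (195) and Mir199a-1 (327).

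Other miRNAs described in mesenchymal and smooth muscle cells gave a scale for these levels. Of 13 names, 11 had a row under their symbol and 9 were detected, with a sum of 35888 CPM in replicate 1 and 37399 CPM in replicate 2. Mir214 was below Mir143 of smooth muscle (18645 ± 1069 CPM) and Mir21a (7260 ± 543 CPM), near Mir100 and above Mir22 (3045 ± 167 CPM). Mir199b came after Mir145a (383 ± 35.8 CPM), Mir125b-1 (529 ± 120 CPM) and Mir125b-2 (344 ± 25.3 CPM), and Mir199a-2 was near Mir29c (67.5 ± 5.49 CPM). The miR-199 rows leave out reads of shared sequences that fit more than 1 place. Their places here are therefore those of assigned counts, not of the mature miR-199 RNAs. Mir29a averaged 41.1 ± 18.2 CPM, and Mir29b-1 and Mir29b-2 were below the minimum. Markers of other cells were present too. All 5 epithelial miR-200 genes were detected, at a sum of 26800 and 23488 CPM in replicates 1 and 2, and Mir126a of endothelium stood at 45180 and 47759 CPM. Mir140, known from cartilage, had 1958 and 2157 CPM, and Mir206 of skeletal muscle had 72.3 and 53.5 CPM, Mir133b had 2.50 and 1.09 CPM, and Mir1a-1, Mir133a-1 and Mir133a-2 had 0 counts. Reads that mapped to several places are in none of these rows, so a low count or 0 counts need not mean that a miRNA was absent. The 4 blood genes with a row summed to 427 and 346 CPM. These are whole kidneys, so no level can be assigned to stroma, and more cells of a type cannot be told apart from more RNA per cell.

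Replicate 1 was set against replicate 2 for every detected gene. The test was an exact binomial one, two-sided, on own-strand counts with TMM-scaled library totals, and p-values were adjusted over all 345 genes (Benjamini-Hochberg). It concerns these libraries and counting error only. A change counted as called when the adjusted p was under 0.05 and the ratio at least 1 on the log2 scale in either direction, which held for 3.19% of detected genes and for 0 of the 4 members. These were 11 genes, against 2 by edgeR's exact test with an assumed coefficient of variation of 0.2. At any size, 1 member passed as higher in replicate 1, where 27.0% of all detected genes did. This was Mir214, whose ratio (replicate 1 over replicate 2, log2 scale) was 0.22 (95% exact interval 0.20 to 0.25; adjusted p = 1.45e-66, exact binomial test). In edgeR's exact test its adjusted p was 1, so it did not pass there. The ratio was smaller in size than the median of 0.24 over all detected genes.

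The other members did not pass. Mir199a-2 had a log2 ratio of 0.06 (-0.17 to 0.28; adjusted p = 0.749, exact binomial test), Mir199a-1 of 0.28 (-0.86 to 1.50; adjusted p = 0.816) and Mir199b of 0.12 (-0.01 to 0.26; adjusted p = 0.121). For Mir199a-1, with 19 and 11 counts, the interval was wide and held differences in both directions, so equal levels in the replicates were not shown. All 4 ratios were above 0, as were 46.7% of those of detected genes. In the mesenchymal list the median log2 ratio was -0.16, and 1 of 9 detected genes passed as higher in replicate 1 (Mir21a, 0.15) and 7 as lower, where 26.7% of all detected genes passed as lower. In the epithelial list the median was 0.12, with 4 of 5 passing as higher and 0 as lower, and over all detected genes it was -0.02. Mir122, the main miRNA of hepatocytes, had 56.3 CPM in the first replicate and 1074 CPM in the second, and Mir451a of red blood cells at 115 and 49.1 CPM. The part of these differences in the members' ratios was not tested.

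**Figure D4:**
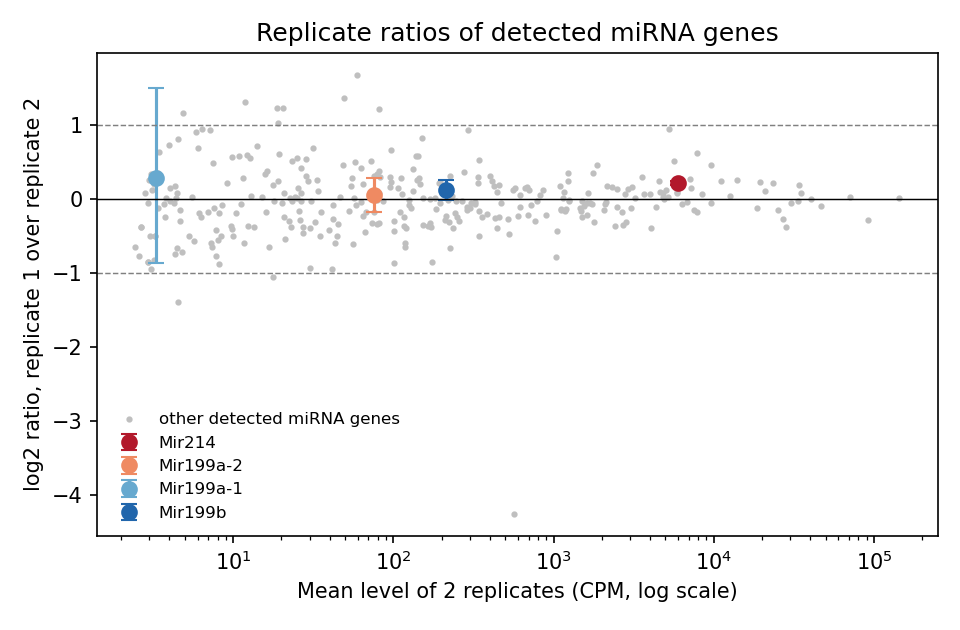
log2 ratio of replicate 1 over replicate 2 against mean level in CPM on a log scale for the 345 detected genes, with 95% exact counting intervals for the 4 members and dashed lines at a ratio of 1 in size. Mir214 lies at 0.22 with a narrow interval, and the intervals of Mir199a-2, Mir199a-1 and Mir199b include 0.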

How the data were processed

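Small RNA libraries of 2 samples of embryonic kidney were analysed. The authors deposited raw read counts per annotated miRNA gene, with no normalization, on mm10 and GENCODE release M4, per the deposit's file descriptions; no aligner or counting program is named in the sources used here. Each table has columns for both strands, the gene's own strand and the opposite strand, and 4 tallies that name no gene. These tallies held 49.2% and 44.6% of reads in replicates 1 and 2 and were left out of totals.

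Symbols and positions came from GENCODE M21 on the same assembly (1894 of 1973 identifiers matched). Sequences came from RefSeq. Mature sequences, hairpins and seeds were compared by exact match within that table. Levels are own-strand CPM, and 1 CPM was added before taking log2. With 1 group there was no contrast for edgeR's quasi-likelihood test; the replicates were compared by the exact binomial test, with TMM factors from edgeR 4.0.16. The genes named are the members, the 2 genes next above and below each in level, genes sharing a mature sequence or seed, and the marker lists; Mirlet7b and Mirlet7c-2 were added after their values were seen. The members and lists were chosen with earlier results of these data known. Alternatives were other count minimums, DESeq2 1.42.0 size factors, other pseudocounts, other totals, totals without scaling, edgeR's exact test, unstranded counts, and each replicate alone. The binomial test was tried on counts simulated with counting error only, which cannot show how it behaves under further spread between libraries. The replicates' p-values measure only these libraries. Other tools were R 4.3.3 and Python 3.11.15 with scipy 1.17.1, matplotlib 3.10.9, pandas 2.3.3 and numpy 2.4.6.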

Additional observations from a re-analysis of the deposited data

How the results depend on the processing

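The order of the 4 genes rests on 2 libraries and on reads that mapped to 1 place. With the most abundant gene, Mir10a, left out of the total, the levels were 7018 CPM for Mir214, 88.2 CPM for Mir199a-2, 3.88 CPM for Mir199a-1 and 251 CPM for Mir199b, and the 4 genes held 0.736% of counts. Per 1000000 of all reads, tallies included, the levels were 3119 for Mir214, 39.3 for Mir199a-2, 1.72 for Mir199a-1 and 112 for Mir199b, and the share was 0.327%. Both changes follow from the total and leave the ratios between genes as they were. The log2 difference of Mir199b over Mir199a-1 was 5.82 with a pseudocount of 0.5 CPM and 4.72 with 5 CPM, since Mir199a-1 lies near these values. Of all genes, 11 were called between the replicates by the binomial test and 2 by edgeR's exact test with an assumed coefficient of variation of 0.2. Under the other settings that count was 9 to 16. The log2 replicate ratio of Mir214 was 0.21 to 0.25 under all settings run, and in edgeR's exact test its adjusted p was 1, against 1.45e-66 in the binomial test. None of the 4 members reached a ratio of 1 in size with an adjusted p under 0.05 in any setting in which it was tested. Levels, shares and differences with unstranded counts moved by less than 1 SD. With a replicate left out, they are the values of the other replicate. With 2 libraries these always lie less than 1 SD from the mean, so this setting cannot test them. Mir199a-1, with 11 counts in replicate 2, was not tested at a count minimum of 20.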
